A study of Homo sapiens and Mus musculus with 24 samples.

Results

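Integrin and laminin genes were followed across the 4 groups of MCF10A libraries of a study of oncogenic PI3K signalling. The set holds the 38 protein-coding genes whose symbols begin with ITGA (18 integrin alpha subunits), ITGB and 1 digit (8 integrin beta subunits), or LAMA, LAMB or LAMC and 1 digit (12 laminin chains), of 58434 gene identifiers in the tables. The rule reads symbols alone, but the set was chosen with earlier results of these data known.

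MCF10A cells are an immortal, non-tumorigenic line of human breast epithelium. The parental line is wild type for PIK3CA, the gene of the catalytic subunit of PI3K alpha, and the knock-in line, called KI below, is heterozygous for PIK3CA H1047R, an activating change. Each line received DMSO, the solvent, or the PI3K alpha inhibitor alpelisib (BYL719) at 1 uM, and the source labels of all 12 libraries name 4 h. The 4 groups are parental with DMSO, parental with BYL719, KI with DMSO and KI with BYL719, with 3 libraries each. Both lines were purchased as an isogenic pair from Horizon. With 1 line of each genotype, the genotype and any other difference between the lines cannot be told apart. The labels do not say whether the 3 libraries of a group are separate cultures, so p-values measure the spread between these libraries, which may be technical.

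Integrins are receptors made of 1 alpha and 1 beta subunit that span the plasma membrane and link the matrix outside the cell to the cytoskeleton within. Laminins are secreted trimers of an alpha, a beta and a gamma chain, and they are main components of the basement membrane on which epithelia rest. In skin and mammary epithelium a trimer with LAMA3 and LAMB3 chains is bound by the integrin of ITGA6 and ITGB4 in hemidesmosomes, the junctions that tie keratin filaments to the basement membrane, and by the integrin of ITGA3 and ITGB1. Integrin engagement is also known to activate PI3K.

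RefSeq promoters of assembly GRCh38.p14 were searched for 3 short motifs in the 250 bases before each gene's start, on both strands, and 26 of the 38 genes had an entry, with 33 promoters between them. ITGB4 and ITGA3 have no entry. The motifs were the AP-1 site TGANTCA, the forkhead (FOXO) site GTAAACA and the GC box GGGCGG, none of which contains another. The stretches below belong to members that carry the comparisons: ITGB8 and LAMB1, whose response to BYL719 differed between the lines, and LAMB3, a chain of the hemidesmosome trimer. They are written 5′ to 3′ on the gene's strand and stop before the first exon base of the gene in GENCODE 29. Capitals mark a GC box on either strand.
ITGB8, chr7:20330650-20330701, plus strand: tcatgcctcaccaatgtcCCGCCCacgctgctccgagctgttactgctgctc
LAMB1, chr7:108003256-108003411, minus strand: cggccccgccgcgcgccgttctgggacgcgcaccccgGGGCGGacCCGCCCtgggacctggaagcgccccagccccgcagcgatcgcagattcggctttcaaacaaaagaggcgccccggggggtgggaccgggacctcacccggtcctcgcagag
LAMB3, chr1:209652467-209652675, minus strand: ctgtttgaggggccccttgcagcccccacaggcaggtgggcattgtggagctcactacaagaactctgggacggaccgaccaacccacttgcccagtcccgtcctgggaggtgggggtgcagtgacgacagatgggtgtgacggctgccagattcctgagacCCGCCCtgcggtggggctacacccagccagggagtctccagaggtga
An AP-1 match lay in 6.57% of 35116 promoters and in 2 of the 33 member promoters, 1 of LAMA3 and 1 of LAMB3. The LAMA3 promoter holds 2 of them. Its RefSeq start lies 180 bases after the GENCODE 29 start of LAMA3-201, the most abundant LAMA3 transcript. Both LAMA3 matches lie after that transcript's start, not before it. The LAMB3 match lies before another RefSeq start, further into the gene than the stretch shown. A FOXO match lay in 2.98% of all promoters and in 0 of the 33 member promoters. A GC box lay in 42.6% of all promoters and in 17 of the 33. A match describes the letters of the window and nothing about what binds there.

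Library totals ran from 120177015 to 162755457 estimated read pairs, and scaling factors (TMM, which corrects for differences in composition) from 0.97 to 1.02. PIK3CA itself was at 57.8 ± 1.69 CPM (read pairs of the gene scaled to the library total; SD, n = 3) in parental DMSO, 69 ± 2.81 in parental BYL719, 40.2 ± 5.9 in KI DMSO and 70.5 ± 1.55 in KI BYL719 libraries. Counts of a gene do not show its alleles, so this does not check the knock-in. All 12 mammary epithelial markers, which hold basal and luminal keratins and general epithelial genes, were above 1 CPM in every group, with KRT5 between 3265 and 3971 CPM. PTPRC, CD3E, CDH5, PF4, GP9, MYOD1 and MYOG, which define leukocytes, endothelium, platelets and muscle, were each at 0.0518 CPM or less in every group mean. Other genes of these lists were higher, with group means of up to 12.3 CPM for CSF1R, 4.99 for CD14, 2.69 for LAPTM5, 2.08 for KDR and 0.998 for GP1BA. Summed markers of fibroblasts ran from 17.7 to 27.4 CPM over the 12 libraries, nearly all of it COL1A1, those of leukocytes from 12.2 to 17.1, those of endothelium from 1.15 to 2.97, those of platelets from 0.917 to 1.78 and those of skeletal muscle from 0.0737 to 0.242.

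KI DMSO replicate 2 stood apart from the other two libraries of its group. It lay at 54.12 on the second principal component of all genes, against 14.12 and 17.09. Of the 35 members tested, 30 were lower in it than in the mean of the other 2, against 55.6% of all 21079 genes tested. The median difference was -0.23 on the log2 scale over these members and -0.03 over all genes tested. At 5 CPM or more 21 of 23 members were lower in it, against 58.2% of genes. The spread that this library adds to KI DMSO enters every comparison below, and calls of members lost or gained without it are given below. For the other gene lists and the markers, values without it are not given. What sets it apart was not tested.

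Laminin chains and laminin receptors of the hemidesmosome were abundant on the TPM scale, which accounts for transcript length. In parental DMSO libraries ITGB1, the beta chain shared by many integrins, stood at 645.1 ± 4.11 TPM (SD, n = 3). LAMA3 followed at 489.3 ± 5.55 and LAMB3 at 431.3 ± 23.3, then ITGA6 at 288.8 ± 2.66 and ITGB4 at 246.4 ± 16.4. ITGA3 (197.9 ± 5.81 TPM), LAMA5 (143.3 ± 13.1) and LAMB2 (111.6 ± 7.74) came next, but restricting the sum to protein-coding transcripts left LAMA5 at 42.3 ± 3.24 and LAMB2 at 23.2 ± 0.959. ITGB5 (96.4 ± 1.59), LAMC1 (77.9 ± 3.77), ITGB6 (75.9 ± 2.28) and ITGAV (70.7 ± 1.11) lay below these, and LAMC1 and ITGB6, neighbours in this order, differed by less than the SD of LAMC1. On protein-coding transcripts alone the order changed, with ITGB6 at 72.6 ± 2.32, ITGAV at 69.5 ± 1.12, ITGB5 at 61.7 ± 1.83 and LAMC1 at 47.8 ± 0.864 TPM, all above LAMA5 and LAMB2.

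The alpha and beta chains of the hemidesmosome trimer were near each other in level. LAMA3 was 1.14 ± 0.049 times LAMB3 in TPM in the parental and 0.896 ± 0.205 times in the KI DMSO libraries, where the KI values ran from 0.673 to 1.08 and the parental ones from 1.08 to 1.18. ITGA6 and ITGB4, the subunits of the hemidesmosome receptor, summed to 535.2 ± 19 TPM in parental libraries with DMSO and 575.8 ± 17.3 with BYL719, and to 390.5 ± 67.9 and 503.4 ± 24 TPM in KI libraries. The sum was lowest in the KI DMSO libraries.

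**Figure D1:**
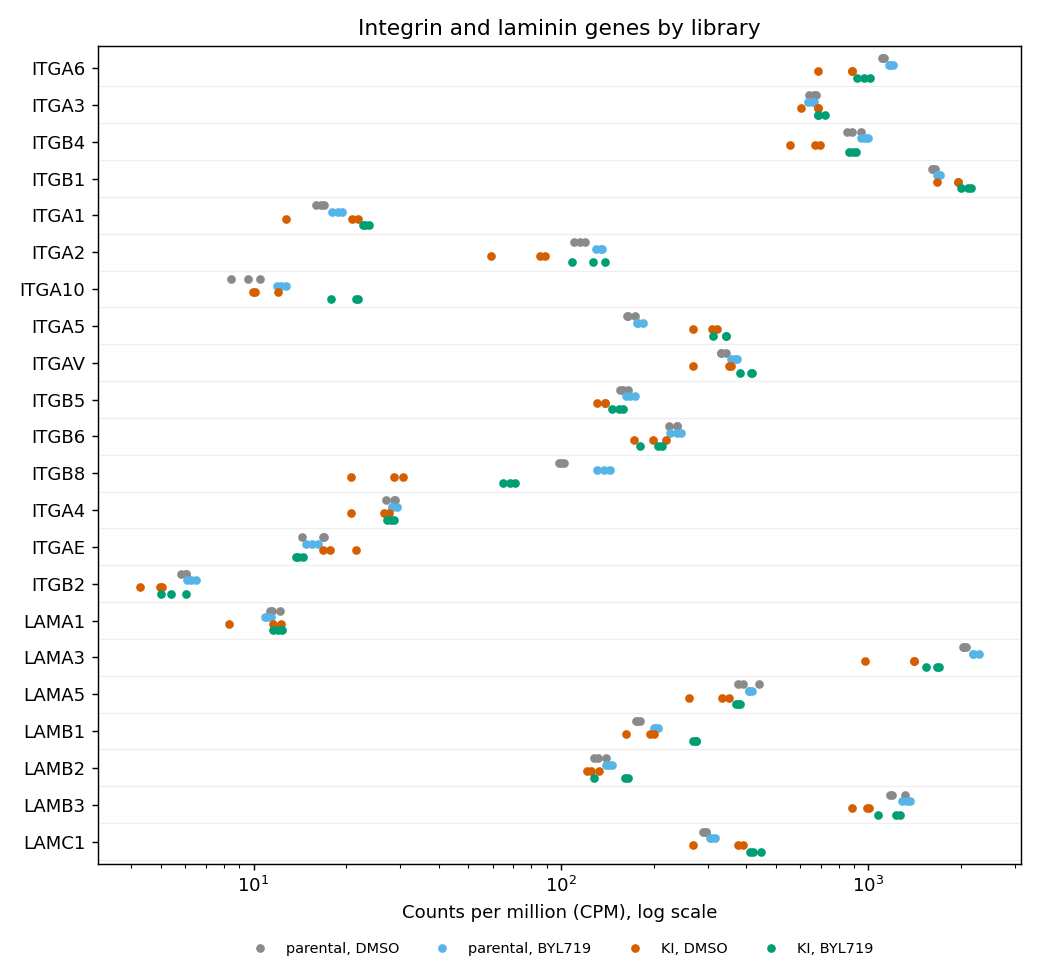
CPM on a log axis for 22 members that reached 5 CPM in the mean of a group, 1 point per library and 1 colour per group. ITGB8 has its 4 groups apart, with KI DMSO lowest (20.7 to 30.7 CPM), and 1 KI DMSO point, replicate 2, lies left of its group for most genes.

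The first comparison asks how the members differed between the lines under DMSO. LAMA3, LAMB3 and LAMA5 were lower in KI, and so were ITGB4 and ITGA6, the hemidesmosome receptor subunits, and ITGA2, the collagen receptor subunit. Of the 12 laminin chains these 3 were lower, LAMA2 was higher and 8 were not called, of the 8 beta subunits 2 were higher and 6 lower, and of the 15 tested alpha subunits 1 was higher and 5 lower. ITGB8, a beta subunit that pairs with ITGAV and binds latent TGF-beta, stood at 26.6 ± 5.29 CPM in KI against 100.1 ± 1.95 in parental libraries (n = 3 each), a log2 difference of -1.89. ITGA5, the fibronectin receptor subunit, was higher in KI, at 300.8 ± 27.4 against 168.1 ± 5.71 CPM, as was its partner ITGB1. By edgeR's quasi-likelihood test with Benjamini-Hochberg adjustment over 21079 genes, at an adjusted p under 0.05, 4 of the 35 members tested were higher in KI and 14 lower, with 17 not called. Over all genes tested 34.2% were called in this comparison, 17% higher and 17.2% lower. Among genes at 5 CPM or more 42.4% were called, and among the 23 members at that level 2 were higher and 10 lower. The median log2 difference was -0.05 over the 35 members and 0.00 over all genes tested. In bulk RNA, fewer cells of a kind and less RNA per cell cannot be told apart.

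The second comparison asks what BYL719 did to each line. In parental cells 0 of 35 members were called by edgeR, against 1.43% of all genes tested (0.844% higher and 0.588% lower). At an unadjusted p under 0.05, 3 members were higher and 0 lower, against 1265 genes higher and 1274 lower of 21079 tested. The median difference was 0.08, against 0.01 over all genes. DESeq2 called 3 of 28 members with an adjusted p, ITGB8, LAMB1 and ITGA10, all higher, against 5.93% of all genes, and a fit of the parental libraries alone called 11 of 34, again all higher, against 17.3%. The count was 1 without KI DMSO replicate 1, against 1.56% of all genes, and 4 without KI DMSO replicate 2, against 9.17%. Neither library is in the groups compared, but both enter the shared spread and the filter on low counts. The 4 were ITGB8 (0.45, adjusted p = 1.53e-05), LAMB1 (0.18, adjusted p = 2.86e-04), ITGA10 (0.36, adjusted p = 0.0362) and ITGA1 (0.17, adjusted p = 0.0194). In KI cells 16 of 35 rose and 1, ITGAE, fell. Over all genes tested 28.3% were called, 15.1% higher and 13.2% lower. Among genes at 5 CPM or more 40.2% were called, and among the 23 members at that level 15 rose and 1 fell. The median was 0.23 over the members and 0.02 over all genes. Of the 12 laminin chains 7 rose, of the 8 beta subunits 4 and of the 15 tested alpha subunits 5, and ITGB8 (log2 1.35), ITGA10 (0.93), ITGA2 (0.68), LAMB1 (0.55) and ITGB4 (0.47) led among members at 5 CPM or more. The count of 17 was 10 without the low-count filter, 5 in a fit of the KI libraries alone, 7 and 9 without KI BYL719 replicate 3 or 1, 9 without parental BYL719 replicate 1, and 10 and 9 without parental DMSO replicate 1 or 2. Of all genes 13.5% were called without the filter, 13.1% with the KI libraries alone and 19.7% to 26.7% without 1 of these libraries.

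The KI DMSO libraries enter both the comparison of the lines under DMSO and the comparison of BYL719 with DMSO in KI, so a low value in them moves both, in opposite directions. The values of both are therefore given side by side below for each member.

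Among receptors for laminin, ITGA6 (ENSG00000091409.15, chromosome 2, 172427354 to 172506282, GRCh38) encodes the alpha subunit shared by the hemidesmosome receptor and a receptor with ITGB1. It was counted at 1125, 1113 and 1104 CPM in the parental DMSO libraries and at 887.6, 687.9 and 886.3 in the KI DMSO libraries. With BYL719 it was at 1167, 1202 and 1172 CPM in parental and 1010, 920.0 and 964.9 in KI libraries. Every KI library was below every parental one, and KI BYL719 libraries were above KI DMSO ones. The difference between the lines was -0.42 under DMSO (SE 0.0751, adjusted p = 0.00103), and with BYL719 -0.26 (SE 0.0751, adjusted p = 0.0236). The second call was lost without parental BYL719 replicate 2 or 3 or KI BYL719 replicate 2 or 3 (adjusted p 0.0607 to 0.0968). The rise of 0.23 with BYL719 in KI (SE 0.0751, adjusted p = 0.0374) was lost in 11 of 18 alternatives, among them the removal of any parental library or of KI BYL719 replicate 1 or 3, with adjusted p from 0.0551 to 0.171. It was 0.12 without KI DMSO replicate 2.

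ITGB4 (chromosome 17, 75721328 to 75757818), the partner of ITGA6 with a long cytoplasmic tail that binds hemidesmosome linkers, was at 947.0, 852.7 and 886.0 CPM in parental DMSO and 668.2, 556.8 and 696.5 in KI DMSO libraries. BYL719 libraries held 996.8, 976.2 and 943.7 CPM in parental and 910.3, 866.0 and 891.3 in KI cells. The KI DMSO group was the one apart, below all 9 other libraries. ITGB4 was lower in KI under DMSO by a log2 difference of -0.46 (SE 0.0673, adjusted p = 2.21e-04) and rose by 0.47 with BYL719 in KI (SE 0.0674, adjusted p = 2.82e-04). Both calls held in all 18 alternatives. With BYL719 the lines differed by -0.10 (adjusted p = 0.344), or -0.11 (adjusted p = 0.0298) without KI DMSO replicate 2, and the difference in response between the lines was 0.36 (SE 0.0951, adjusted p = 0.0743), which DESeq2 called and which without KI DMSO replicate 2 was 0.27 (adjusted p = 0.00737).

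ITGB1 (chromosome 10, 32900319 to 33005792), the common beta chain, was at 1616, 1650 and 1621 CPM in parental libraries with DMSO and 1669, 1706 and 1689 with BYL719, and at 1953, 1671 and 1950 CPM in KI libraries with DMSO and 2116, 1996 and 2149 with BYL719. All KI libraries were above all parental DMSO ones, replicate 2 of KI DMSO by the least. The lines differed by 0.22 under DMSO (SE 0.0541, adjusted p = 0.00846) and by 0.33 with BYL719 (SE 0.0542, adjusted p = 6.10e-04). The first was lost in a fit of those groups alone (adjusted p = 0.0603). The rise of 0.16 with BYL719 in KI (SE 0.0541, adjusted p = 0.0399) was lost in 14 of 18 alternatives, among them the removal of any 1 library other than KI BYL719 replicate 2, with adjusted p from 0.0532 to 0.2, and was 0.09 without KI DMSO replicate 2. ITGA3, the other laminin-binding alpha subunit of these cells, was called in none of the 5 comparisons, with group means from 654.7 to 698.7 CPM. Without KI DMSO replicate 2 it was higher in KI with BYL719 by 0.11 (adjusted p = 0.0169).

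Among collagen receptors, ITGA2 (chromosome 5, 52989326 to 53094779) was at 119.9, 115.6 and 110.6 CPM in parental libraries with DMSO and 129.7, 134.6 and 135.9 with BYL719, and at 85.3, 59 and 88.9 CPM in KI libraries with DMSO and 139.0, 108.3 and 127.6 with BYL719. KI DMSO lay below the other 3 groups, and KI BYL719 overlapped both parental groups. The line difference under DMSO was -0.54 (SE 0.122, adjusted p = 0.00438) and the rise with BYL719 in KI 0.68 (SE 0.123, adjusted p = 0.00136), and both held in all 18 alternatives, at -0.39 and 0.52 without KI DMSO replicate 2. With BYL719 the lines differed by -0.07 (SE 0.122, adjusted p = 0.772).

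ITGA10 (chromosome 1, 145891208 to 145910189), a collagen receptor subunit known from cartilage, was low. It was at 10.5, 9.61 and 8.45 CPM in parental libraries with DMSO and 12.8, 11.9 and 12.3 with BYL719, and at 9.97, 10.1 and 12 CPM in KI libraries with DMSO and 17.8, 21.8 and 21.6 with BYL719. The KI BYL719 libraries were above all others, and the KI and parental DMSO libraries overlapped. ITGA10 rose by 0.93 with BYL719 in KI (SE 0.0955, adjusted p = 2.52e-05), held in all 18 alternatives, and the parental value was 0.37 (SE 0.0959, adjusted p = 0.0952). With BYL719 it was higher in KI than in parental cells by 0.75 (SE 0.095, adjusted p = 7.88e-05). ITGA1 was called in no comparison over all 12 libraries, with 18.5 ± 4.99 CPM in KI DMSO and 16.5 ± 0.471 in parental DMSO libraries. Without KI DMSO replicate 2, at 12.8 CPM, it was higher in KI by 0.38 under DMSO (adjusted p = 8.05e-06) and by 0.32 with BYL719 (adjusted p = 1.61e-05). ITGA11, also of this class, stayed at 0.201 CPM or less.

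Among receptors of fibronectin, vitronectin and latent TGF-beta, ITGB8 (ENSG00000105855.10, chromosome 7, 20330702 to 20415754), whose promoter stretch is printed above, had the widest differences of the members at 5 CPM or more. It was at 98.2, 100.2 and 102.1 CPM in parental libraries with DMSO and 130.9, 137.6 and 144.8 with BYL719, and at 30.7, 20.7 and 28.6 CPM in KI libraries with DMSO and 64.6, 68.5 and 71.1 with BYL719. No library of 1 group overlapped another group, and KI with BYL719 remained below parental with DMSO. The line difference was -1.89 under DMSO (SE 0.106, adjusted p = 5.75e-08), a level 3.70-fold lower, and -0.99 with BYL719 (SE 0.103, adjusted p = 1.49e-05). ITGB8 rose by 1.35 with BYL719 in KI (SE 0.105, adjusted p = 2.83e-06), or 2.55-fold. These 3 calls held in all 18 alternatives. In parental cells the value was 0.46 (SE 0.102, adjusted p = 0.0528), under 0.05 in 5 of 18 alternatives, DESeq2, no low-count filter, the parental libraries alone and the fits without KI DMSO replicate 1 or 2.

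ITGA5 (chromosome 12, 54395261 to 54419460), which with ITGB1 forms the main fibronectin receptor, was at 174.7, 164.5 and 165.2 CPM in parental DMSO and 311.1, 269.8 and 321.7 in KI DMSO libraries. With BYL719 it was at 178.7, 185.4 and 176.5 CPM in parental and 344.9, 312.6 and 343.3 in KI libraries. The lines did not overlap under either treatment. The line difference was 0.87 under DMSO (SE 0.0601, adjusted p = 3.66e-07) and 0.92 with BYL719 (SE 0.0601, adjusted p = 2.52e-07), held in all 18 alternatives. The BYL719 values were 0.10 (SE 0.0597, adjusted p = 0.623) in parental and 0.15 (SE 0.0596, adjusted p = 0.0888) in KI cells. The TPM ratio of ITGA5 to ITGB8 was 3.31 ± 0.189 in parental DMSO, 2.54 ± 0.111 in parental BYL719, 23.5 ± 5.45 in KI DMSO and 9.39 ± 0.599 in KI BYL719 libraries.

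ITGAV (chromosome 2, 186590065 to 186680901) encodes the alpha subunit that pairs with ITGB3, ITGB5, ITGB6 and ITGB8. It was at 332.3, 345.0 and 331.4 CPM in parental libraries with DMSO and 357.4, 369.5 and 374.5 with BYL719, and at 358.2, 268.5 and 353.2 CPM in KI libraries with DMSO and 418.0, 382.5 and 416.2 with BYL719. Under DMSO the lines overlapped (log2 difference -0.02, adjusted p = 0.899), while KI BYL719 libraries were above all others. ITGAV rose by 0.31 with BYL719 in KI (SE 0.0821, adjusted p = 0.0145), a call lost with the KI libraries alone or without KI BYL719 replicate 1 or 3 (adjusted p 0.0545 to 0.102), and 0.18 without KI DMSO replicate 2.

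ITGB5 (chromosome 3, 124761948 to 124901418), a vitronectin receptor subunit, was at 164.8, 159.0 and 155.1 CPM in parental libraries with DMSO and 167.6, 174.3 and 163.2 with BYL719, and at 139.5, 130.6 and 138.8 CPM in KI libraries with DMSO and 159.4, 146.3 and 154.6 with BYL719. The KI DMSO libraries were below all others. ITGB5 was lower in KI under DMSO by -0.20 on the log2 scale (SE 0.0453, adjusted p = 0.00445), held in all 18 alternatives. Its rise of 0.17 with BYL719 in KI (SE 0.0453, adjusted p = 0.0163) was lost in 10 of 18, among them the removal of KI BYL719 or KI DMSO replicate 1 or 3, parental BYL719 replicate 1 or parental DMSO replicate 1 or 2 (adjusted p 0.056 to 0.318).

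ITGB6 (chromosome 2, 160099666 to 160200313), an epithelial subunit that binds latent TGF-beta, was at 239.1, 237.9 and 224.2 CPM in parental libraries with DMSO and 226.1, 246.1 and 237.7 with BYL719, and at 198.9, 172.3 and 219.5 CPM in KI libraries with DMSO and 213.5, 180.1 and 207.2 with BYL719. KI libraries were lower than parental ones under both treatments. The DMSO difference of -0.22 (SE 0.0787, adjusted p = 0.0466) was close to the threshold and was lost in 11 of 18 alternatives, among them the removal of any 1 library other than KI DMSO replicate 3 or KI BYL719 replicate 2, with adjusted p from 0.0511 to 0.17 and a value of -0.15 without KI DMSO replicate 2. BYL719 values were 0.01 (adjusted p = 0.989) in parental and 0.02 (adjusted p = 0.868) in KI cells.

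ITGB3, the other beta partner of ITGAV and the platelet fibrinogen receptor's beta chain, was near 1 CPM. It stood at 0.291 ± 0.0534 CPM in parental DMSO and 0.861 ± 0.232 in KI DMSO libraries, and at 0.377 ± 0.0509 and 1.05 ± 0.132 with BYL719. It was higher in KI by 1.60 under DMSO (SE 0.219, adjusted p = 1.30e-04) and by 1.5 with BYL719 (SE 0.213, adjusted p = 2.10e-04), and both calls held in all 18 alternatives. The 5 platelet markers summed to 1.04 to 1.16 CPM in parental DMSO and 1.53 to 1.76 in KI DMSO libraries, with PF4 and GP9 at 0 in both, and their part in this result was not tested.

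**Figure D2:**
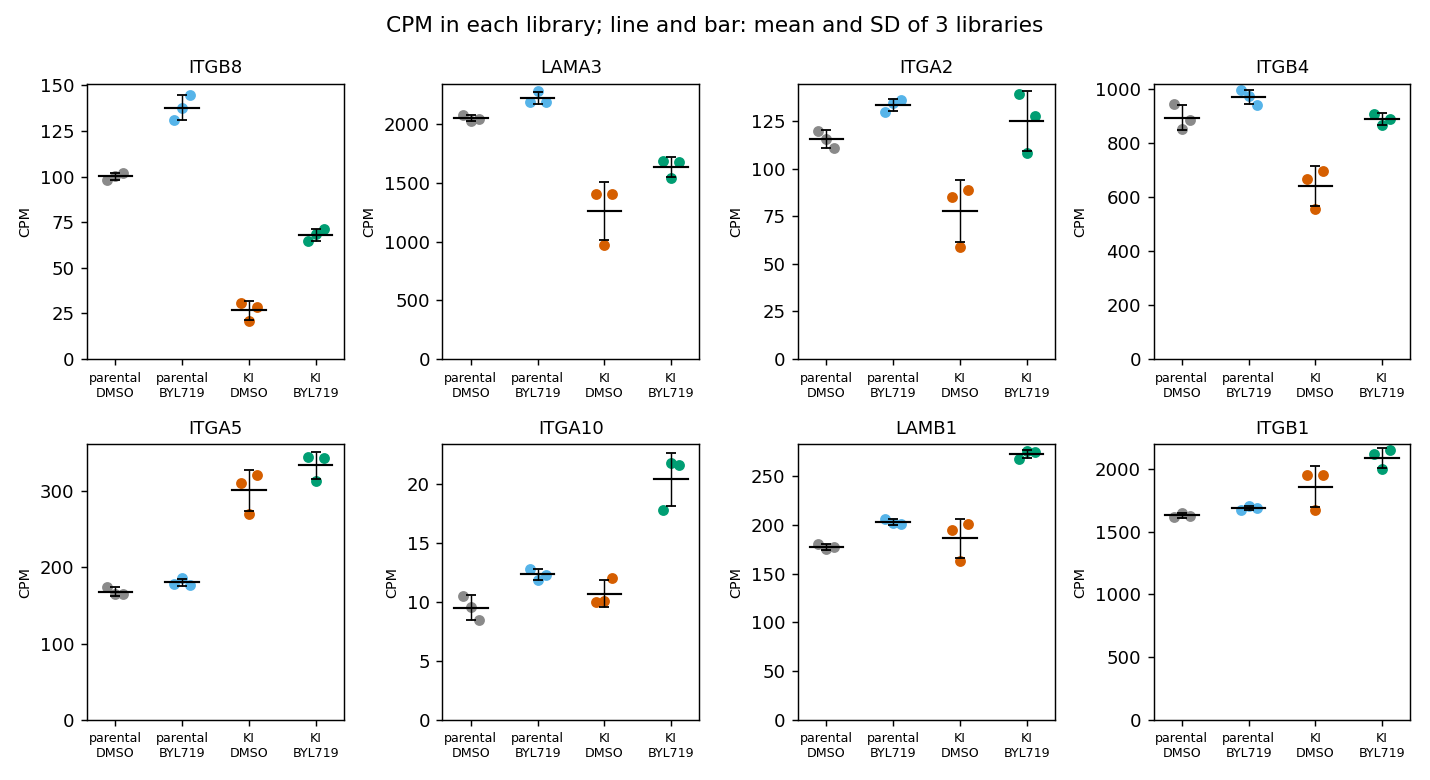
CPM of 8 members in each library on linear axes from 0, with the mean and SD of 3 libraries per group. For ITGB8, LAMA3, ITGA2 and ITGB4 the KI DMSO libraries are lowest, for ITGA5 both KI groups are above both parental groups, and for ITGA10 and LAMB1 the KI BYL719 group is above the other 3.

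Among laminin alpha chains, LAMA3 (ENSG00000053747.16, chromosome 18, 23689443 to 23956222) was at 2078, 2032 and 2048 CPM in parental libraries with DMSO and 2189, 2282 and 2195 with BYL719, and at 1403, 972.3 and 1407 CPM in KI libraries with DMSO and 1691, 1539 and 1676 with BYL719. All KI libraries were below all parental ones, and within KI the BYL719 libraries were above the DMSO ones. The lines differed by -0.68 under DMSO (SE 0.103, adjusted p = 2.81e-04), held in all 18 alternatives and at -0.53 without KI DMSO replicate 2. With BYL719 they differed by -0.42 (SE 0.103, adjusted p = 0.011), lost without KI BYL719 replicate 2 (adjusted p = 0.0525). LAMA3 rose by 0.37 with BYL719 in KI (SE 0.103, adjusted p = 0.0174), or 0.21 without KI DMSO replicate 2. That call was lost with the KI libraries alone or without KI BYL719 replicate 1 or 3 (adjusted p 0.0596 to 0.111).

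LAMA5 (chromosome 20, 62307955 to 62367312), a chain of most mature basement membranes, was at 441.1, 375.9 and 391.0 CPM in parental libraries with DMSO and 409.4, 410.4 and 418.4 with BYL719, and at 352.1, 261.3 and 334.9 CPM in KI libraries with DMSO and 381.2, 375.3 and 370.3 with BYL719. KI DMSO was below the other groups. The line difference under DMSO was -0.32 (SE 0.0854, adjusted p = 0.0111), which did not hold in a fit of those groups alone or without replicate 1 of parental DMSO (adjusted p 0.0555 to 0.0663). The rise of 0.25 with BYL719 in KI (SE 0.0853, adjusted p = 0.0488) was lost in 15 of 18 alternatives, including the removal of any 1 library other than KI DMSO replicate 1 (adjusted p 0.0603 to 0.619), and was 0.12 without KI DMSO replicate 2. ADRM1, on the opposite strand, shares 244 exon bases with LAMA5 and was at 31.1% of its level, and whether reads kept their strand was not given in the sources used here.

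LAMA1, an alpha chain of early embryonic basement membranes, was between 10.7 and 12 CPM in the 4 group means and was called in no comparison. LAMA2, known from muscle and nerve, was under 1 CPM, at 0.601 ± 0.0271 in parental DMSO and 0.838 ± 0.00781 in KI DMSO libraries. Its difference of 0.51 (SE 0.156, adjusted p = 0.0248) was lost with the effective-length offset, where it was 0.16 (adjusted p = 0.674), with no filter on low counts, and without any 1 of the parental DMSO libraries.

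Among beta chains, LAMB1 (ENSG00000091136.14, chromosome 7, 107923799 to 108003255), the chain of laminins outside hemidesmosomes, was at 180.9, 175.0 and 177.2 CPM in parental libraries with DMSO and 206.2, 202.2 and 200.7 with BYL719, and at 194.8, 163.2 and 201.0 CPM in KI libraries with DMSO and 267.9, 275.7 and 275.1 with BYL719. In each line the BYL719 libraries were above the DMSO ones, and KI BYL719 was above all others. LAMB1 rose by 0.55 in KI (SE 0.0575, adjusted p = 2.93e-05), against 0.19 in parental cells (SE 0.0574, adjusted p = 0.161). Under DMSO the lines overlapped, at 0.09 (SE 0.0573, adjusted p = 0.233), a value that without KI DMSO replicate 2 was 0.17 (adjusted p = 1.62e-04) and with the effective-length offset 0.22 (adjusted p = 0.0026). With BYL719 the line difference was 0.45 (SE 0.0574, adjusted p = 8.21e-05). The rise in KI and this difference held in all 18 alternatives. DLD, on the opposite strand, shares 70 exon bases with LAMB1 and was at 125.9 CPM on average, 60% of the level of LAMB1. Its part in the LAMB1 values was not tested.

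LAMB3 (chromosome 1, 209614870 to 209652466), the beta chain of the hemidesmosome trimer, was at 1313, 1193 and 1172 CPM in parental libraries with DMSO and 1338, 1367 and 1282 with BYL719, and at 885.5, 991.0 and 1006 CPM in KI libraries with DMSO and 1264, 1077 and 1231 with BYL719. KI DMSO was below all other libraries. Unlike most members, LAMB3 was not lowest in replicate 2 of that group. The line difference under DMSO was -0.32 (SE 0.0728, adjusted p = 0.00444), held in all 18 alternatives. The rise with BYL719 in KI was 0.30 (SE 0.0727, adjusted p = 0.00827), lost with the KI libraries alone, without KI DMSO replicate 1 or without KI BYL719 replicate 1 (adjusted p 0.0537 to 0.0683).

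LAMB2 (chromosome 3, 49121114 to 49133118), a beta chain of kidney, synapse and vessel laminins, was at 140.5, 132.2 and 128.5 CPM in parental libraries with DMSO and 146.9, 140.2 and 143.4 with BYL719, and at 125.1, 121.7 and 132.6 CPM in KI libraries with DMSO and 127.9, 161.2 and 165.6 with BYL719. Replicate 1 of KI BYL719 lay within the KI DMSO range. The rise of 0.26 in KI (SE 0.0777, adjusted p = 0.0274) was lost in 8 of 18 alternatives, the effective-length offset, the KI libraries alone and the fits without KI BYL719 replicate 2 or 3, KI DMSO replicate 1 or 2, parental BYL719 replicate 1 or parental DMSO replicate 2 (adjusted p 0.0537 to 0.79).

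Among gamma chains, LAMC1 (chromosome 1, 183023460 to 183145592), the one of most laminins, was at 297.3, 289.5 and 295.6 CPM in parental libraries with DMSO and 306.4, 318.1 and 307.5 with BYL719, and at 392.4, 269.1 and 376.2 CPM in KI libraries with DMSO and 446.4, 420.0 and 413.0 with BYL719. KI libraries were above parental ones except KI DMSO replicate 2, which was below them. The line difference under DMSO was 0.26 (SE 0.0989, adjusted p = 0.0622) with that library and 0.40 (adjusted p = 7.28e-07) without it, and was also under 0.05 by DESeq2 (adjusted p = 0.041) and with the effective-length offset (0.23, adjusted p = 0.0485). With BYL719 it was 0.48 (SE 0.099, adjusted p = 0.00325), held in all 18 alternatives. The rise with BYL719 in KI was 0.30 (SE 0.0988, adjusted p = 0.0395), or 0.14 (adjusted p = 0.00989) without KI DMSO replicate 2, and was lost in 12 of 18 alternatives, among them the removal of any 1 parental or KI BYL719 library (adjusted p 0.0512 to 0.163). LAMC3 stood between 2.31 and 2.69 CPM and was called in no comparison.

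Subunits known from leukocytes and platelets were low or not coding. ITGB2, the beta chain of leukocyte integrins, was at 6.01, 6.01 and 5.83 CPM in parental libraries with DMSO and 6.51, 6.27 and 6.06 with BYL719, and at 4.96, 4.27 and 5.04 CPM in KI libraries with DMSO and 6.05, 4.99 and 5.41 with BYL719. It was lower in KI under DMSO by -0.30 (SE 0.0825, adjusted p = 0.0151), which did not hold with the effective-length offset or without replicate 1 or 2 of parental DMSO (adjusted p 0.0519 to 0.243). Its alpha partners ITGAL, ITGAM, ITGAX and ITGAD reached 0.0296, 0.309, 0.437 and 0.00488 CPM at most. The antisense gene ITGB2-AS1 was at 20.5% of its level. The 8 leukocyte markers summed to 16.3 to 17.1 CPM in parental DMSO and 14.8 to 15.3 in KI DMSO libraries. Of these CSF1R was lower in KI (12.3 against 7.22 CPM), CD14 and LAPTM5 were higher (3.68 against 4.99 and 0.589 against 2.69 CPM), and the defining PTPRC was at 0.00903 and 0.0277 CPM. Their part in the result was not tested.

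ITGAE, the alpha subunit of an epithelium-binding integrin of resident T cells, was at 16.8, 17 and 14.4 CPM in parental libraries with DMSO and 15.5, 16.2 and 14.8 with BYL719, and at 16.8, 21.6 and 17.7 CPM in KI libraries with DMSO and 14.5, 13.7 and 14 with BYL719. Here KI DMSO replicate 2 was the highest library. ITGAE fell by 0.42 with BYL719 in KI (SE 0.0951, adjusted p = 0.00623), lost in the KI libraries alone (adjusted p = 0.0508). Of its pairs in parental DMSO libraries 84% ± 1.27 went to ITGAE-207, a processed transcript of 672 nt at the gene's 3′ end that is annotated as not coding, and its protein-coding transcripts summed to 0.00207 ± 0.00359 TPM. HASPIN, on the opposite strand at 24.4 CPM, shares 427 exon bases with it. The values of ITGAE therefore describe mainly that short transcript. Without strand, reads of HASPIN in the shared bases cannot be told from those of ITGAE. The shared bases were counted over all ITGAE exons, and whether any lie in ITGAE-207 was not examined.

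ITGA4, which pairs with ITGB1 or ITGB7, was between 25 and 28.5 CPM and was called in no comparison. The remaining members stayed under 1 CPM in every group. ITGB7 was at 0.647 ± 0.0557 CPM in parental DMSO and 0.254 ± 0.103 in KI DMSO libraries, lower by a log2 difference of -1.33 (SE 0.259, adjusted p = 0.00176), and by -1.62 with BYL719 (SE 0.274, adjusted p = 8.25e-04). Without KI DMSO replicate 2 it was lower with BYL719 in KI by -0.89 (adjusted p = 0.00924), which was not called over all 12 libraries. ZNF740 shares 1886 exon bases with it on the opposite strand at 46.2 CPM on average, so ITGB7 is uncertain. ITGA7 (at most 0.977 CPM) and ITGA2B (0.996) were lower in KI under DMSO by -0.72 (adjusted p = 0.0154) and -0.69 (adjusted p = 0.00583). The ITGA7 call was lost without replicate 2 of parental DMSO or KI DMSO replicate 3 (adjusted p 0.0515 to 0.0555), and that of ITGA2B with the effective-length offset (adjusted p = 0.181). ITGA9 was called lower in KI under DMSO (-2.62, adjusted p = 0.012) and higher with BYL719 in KI (2.17, adjusted p = 0.0449), at no more than 0.0745 CPM in a group mean. ITGA9-AS1 shares 535 exon bases with it on the opposite strand at 0.607 CPM, so ITGA9 is uncertain. The first call did not hold without replicate 1 of parental DMSO (adjusted p = 0.0617), and the second in 12 of 16 alternatives, which include the removal of any 1 library other than KI BYL719 replicate 1. LAMA4 and LAMB4 reached 0.174 and 0.354 CPM. ITGA8, ITGAD and ITGAL did not pass the filter on low counts and were not tested, with at most 0.0296 CPM.

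The third comparison asks how the lines differed with BYL719 present. Of 35 members 6 were higher in KI, ITGA5, ITGA10, LAMC1, LAMB1, ITGB1 and ITGB3, and 4 were lower, ITGB8, LAMA3, ITGA6 and ITGB7. Over all genes tested 22.3% were called, 11.4% higher and 10.9% lower, and the median difference was 0.09 over members and 0.01 over all genes. A fit of these groups alone called 15 members, 9 higher and 6 lower, against 33.2% of all genes. Added there were ITGA1 (0.33), ITGAV (0.17) and ITGA3 (0.12), higher in KI, and LAMA5 (-0.11) and ITGB4 (-0.10), lower. Without KI DMSO replicate 2, which is in neither group compared, the count was 18 (9 higher and 9 lower), against 34.6% of all genes. The 8 members added were ITGA1 (0.32), ITGAV (0.16, adjusted p = 0.00288) and ITGA3 (0.11), which were higher in KI, and ITGB4 (-0.11), ITGB5 (-0.12, adjusted p = 0.022), ITGB6 (-0.22, adjusted p = 0.0311), ITGA2B (-0.49, adjusted p = 0.03) and ITGA7 (-0.53, adjusted p = 0.0465), which were lower.

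The interaction, the BYL719 effect in KI minus that in parental cells, tests whether the lines responded differently. It was called for 3 members, all larger in KI, against 2.87% of all genes tested, 2.08% larger and 0.797% smaller in KI. The count was 1 without TMM scaling or with the effective-length offset, 1 without any 1 parental library or KI BYL719 replicate 2 or 3, and 4 by DESeq2 or without KI DMSO replicate 2, both of which called ITGB4. Of all genes 2.58% were called without TMM scaling, 1.29% with the offset, 9.08% by DESeq2 and 8.71% without KI DMSO replicate 2. For ITGB8 the effects were 1.35 and 0.46, and their difference 0.90 (SE 0.145, adjusted p = 0.00686), which stayed under 0.05 in all 17 alternatives. For ITGA10 the effects were 0.93 and 0.37, and the difference 0.56 (SE 0.135, adjusted p = 0.0484). For LAMB1 they were 0.55 and 0.19, and the difference 0.36 (SE 0.0811, adjusted p = 0.0367). The ITGA10 call was lost in 12 of 17 alternatives (adjusted p 0.0555 to 0.146), including the removal of any 1 parental library, of KI DMSO replicate 1 or of KI BYL719 replicate 2 or 3. The LAMB1 call was lost in 10 of 17 (adjusted p 0.0624 to 0.163), including any 1 parental library or KI BYL719 replicate 2 or 3. Over the other 32 members the lines were not shown to respond differently.

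Transcript shares describe which forms carried these counts, as Salmon divided pairs between transcripts. LAMA3 was read mainly as LAMA3-201, the short form of 5671 nt (chromosome 18, 23872840 to 23954939), at 85.7% ± 0.688 of pairs in parental DMSO libraries, with 1.12% on the 2 transcripts longer than 9000 nt. In KI DMSO libraries LAMA3-201 took 83.8%, 64% and 84.7% and LAMA3-210, a processed transcript of 4921 nt that starts further 3′ at 23898261, took 12.2%, 32.4% and 11.6%. In the 9 other libraries LAMA3-210 was between 9.25% and 11.5%. ITGB4-206 took 33.7%, 17.3% and 31.6% of ITGB4 in KI DMSO libraries, and 31.9% to 35.6% in the other 9. ITGA6-201 took 84.3%, 79% and 83.3%, against 85% to 86.4% in the other 9, and the rest went mostly to ITGA6-202. ITGA6-201 holds a 130 nt exon (chromosome 2, 172501772 to 172501901) that ITGA6-202 lacks. In each of these genes KI DMSO replicate 2 was the library apart, and the other two KI DMSO libraries were near the rest. The same library stood apart in other genes: LAMA5-212, of 780 nt, took 8.13% in it and 1.76% to 2.87% in the other 11, LAMA5-203 6.05% and 0.618% to 1.51%, LAMB2-217, a retained-intron transcript of 1021 nt, 15% and 6.96% to 9.61%, and ITGA4-201 2.46% and 8.88% to 12.1%. What moved these shares was not tested.

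**Figure D3:**
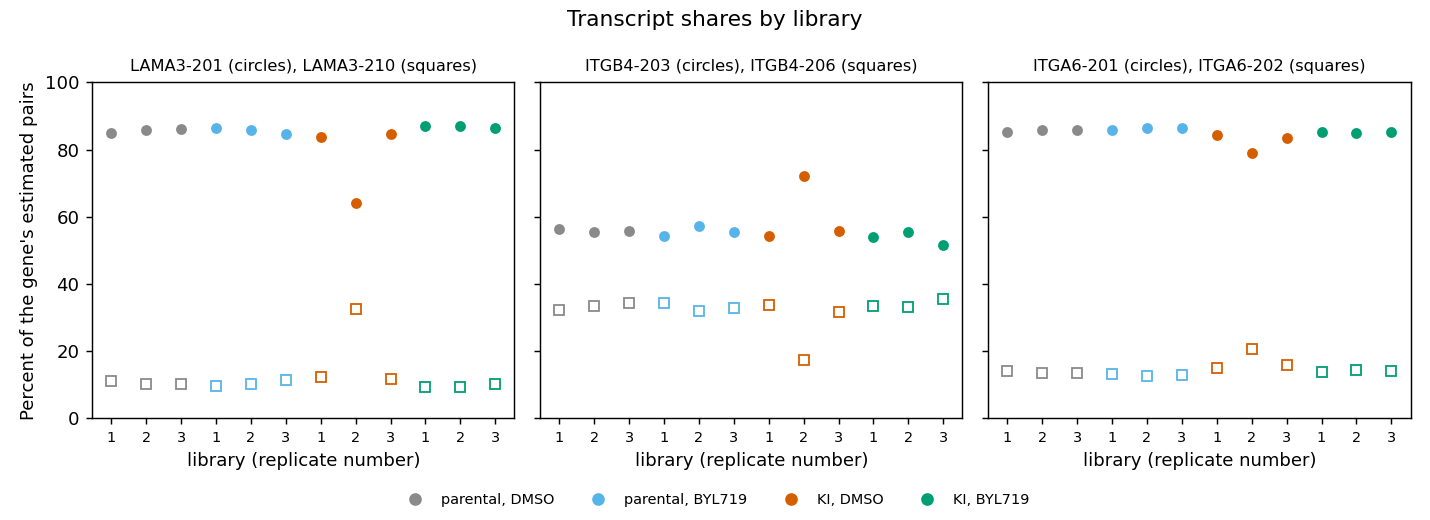
Percent of the gene's estimated read pairs assigned to 2 transcripts of LAMA3, ITGB4 and ITGA6 in each of the 12 libraries, coloured by group, with replicate numbers on the x axis. Shares are nearly level across libraries except in KI DMSO replicate 2, where LAMA3-201 drops to 64% and ITGB4-206 to 17.3%.

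Other genes were read mainly as 1 form: LAMB3-201 at 97.7% ± 0.154, ITGB8-201 at 96.4% ± 0.333, LAMC1-201 at 96.4% ± 0.428 and ITGA5-201 at 97.7% ± 0.478 in parental DMSO libraries. ITGA1 was read only in small part as its coding form ITGA1-201, at 10.9% ± 1.68 of pairs in parental DMSO libraries. There 85.1% ± 0.599 went to ITGA1-208, a transcript of 7986 nt annotated for nonsense-mediated decay. PELO, which lies within ITGA1 on the same strand at 44.4 CPM, shares 475 exon bases with ITGA1. The coding transcripts of ITGA1 summed to 0.232 ± 0.0393 TPM of 3.88 ± 0.298, so its level is uncertain.

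Genes that work with these members were counted from lists of the adhesion machinery and the matrix, to be read against all genes tested. Of all genes tested 17% were higher and 17.2% lower in KI under DMSO, and 15.1% higher and 13.2% lower with BYL719 in KI. With BYL719 in parental cells 0.844% were higher and 0.588% lower. At an unadjusted p under 0.05 in that comparison, 1265 of 21079 genes were higher and 1274 lower. Calls in these lists without KI DMSO replicate 2 are not given. Of 24 tested genes of the adhesion complex inside the cell, 4 were higher and 5 lower in KI under DMSO, 0 were called with BYL719 in parental cells (3 higher and 1 lower at an unadjusted p under 0.05) and 4 rose with 0 falling in KI. PTK2B, a focal adhesion kinase relative, was lower in KI by -0.61 (SE 0.0527, adjusted p = 2.62e-06) and rose by 0.54 with BYL719 in KI (SE 0.0527, adjusted p = 1.74e-05). FERMT2, a kindlin that activates integrins, was higher in KI under DMSO by 0.70 (SE 0.053, adjusted p = 7.51e-07). Of 8 tested genes of the hemidesmosome and other laminin receptors, 3 were lower and 0 higher in KI under DMSO, 0 were called with BYL719 in parental cells (0 at an unadjusted p under 0.05), and 2 rose in KI with BYL719. These 2 were DST, which anchors keratin filaments to the hemidesmosome, at 552.3 CPM in parental DMSO, 251.5 in KI DMSO and 478.2 in KI BYL719 libraries, and COL17A1, its collagen, at 813.8, 583.8 and 743.7 CPM. DST differed between the lines by -1.11 (SE 0.142, adjusted p = 7.34e-05) and rose by 0.93 (SE 0.142, adjusted p = 4.58e-04).

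Of 15 tested basement membrane genes other than laminins, 3 were higher and 6 lower in KI under DMSO, 0 were called with BYL719 in parental cells (1 higher at an unadjusted p under 0.05) and 9 rose with 0 falling in KI. COL4A1 and COL4A2, the common collagen IV chains, were higher in KI under DMSO by 0.44 (SE 0.0863, adjusted p = 0.00179) and 0.36 (SE 0.0617). COL18A1 was lower by -0.95 (SE 0.0482, adjusted p = 2.25e-08). Of 14 tested ligands of integrins other than laminins, 8 were higher and 1 lower in KI under DMSO, with FBN1, the microfibril protein fibrillin, at 14.2 against 3.42 CPM and CDH1, the E-cadherin that ITGAE binds, at 109.7 against 240.7 CPM. With BYL719 1 ligand was called in parental cells, CCN1, which fell by 0.28 (SE 0.0606, adjusted p = 0.0446), and 5 rose in KI, CCN1 by 0.66 (SE 0.0603, adjusted p = 1.05e-05). Median differences with BYL719 in KI were 0.09 for the adhesion complex, 0.14 for the hemidesmosome list, 0.22 for the basement membrane list and 0.16 for the ligands, against 0.02 over all genes tested.

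Of the 12 mammary epithelial markers 2 were higher and 7 lower in KI under DMSO, with BYL719 4 rose and 3 fell in KI, and 1, TP63, rose in parental cells by 0.43 (SE 0.0767, adjusted p = 0.0168). TP63, a transcription factor of basal cells, was at 78.8 CPM in parental libraries with DMSO and 106.4 with BYL719, and at 27.7 and 59.2 CPM in KI libraries. The line difference was -1.48 (SE 0.0788, adjusted p = 3.50e-08), and it rose by 1.09 with BYL719 in KI (SE 0.0783, adjusted p = 1.48e-06). The summed markers ran from 13412 to 13919 CPM in parental DMSO and from 11140 to 12574 in KI DMSO libraries, and KRT14 was higher in KI by 2.37 (SE 0.0784). TP63 moved beside the hemidesmosome members, lower in KI under DMSO and higher with BYL719 in KI. KRT14 went the other way, with a log2 difference of -0.33 with BYL719 in KI (SE 0.0744). The summed markers were lower still in KI BYL719 libraries, at 10162 to 10368 CPM. The part of these markers in the result was not tested.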

How the data were processed

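RNA from MCF10A cells was sequenced as paired reads, per the labels' protocols. Per the submitters' processing notes, the authors named Trim Galore 0.6.1, cutadapt, Salmon 1.2.1, DESeq2 1.28.1 and the builds GRCh38 and GRCm38. The deposited tables give each transcript's expected count (an estimated number of read pairs) and TPM (the authors' length-scaled abundance). Neither strandedness nor the annotation release was given in the sources used here. MEF libraries of the series were left out as not of this cell line.

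Expected counts of all transcripts of a gene were summed and rounded. Levels are CPM by library total, or summed TPM for comparisons between genes. edgeR 4.0.16 (filterByExpr, TMM, robust quasi-likelihood fit of 4 group means over 12 libraries, 8 residual degrees of freedom, two-sided) tested 21079 genes, with Benjamini-Hochberg adjustment and calls at an adjusted p under 0.05. Standard errors are the log2 fold change divided by the root of F. The fit was checked on simulated counts. Alternatives were DESeq2 1.42.0, no TMM, an effective-length offset (each gene's mean transcript length by library), no filter, only the groups compared, a replicate block and leaving out each library. Members at 5 CPM or more in a group mean and called at least once are described in full, and of the other lists at most 2 called genes per direction are named. 1 of the 38 genes and 1 marker are in the counts but not reported here. Coordinates are from GENCODE 29 (GRCh38), promoters from RefSeq (GRCh38.p14). Members and lists were chosen with earlier results of these data known.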

Additional observations from a re-analysis of the deposited data

Results flagged for a closer look

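The BYL719 effect was larger in KI than in parental cells for 3 of 35 members by the test of the difference itself. Of all genes tested 2.87% were called by it. In parental cells none of the 3 effects was called by edgeR (adjusted p = 0.0528 for ITGB8, 0.0952 for ITGA10 and 0.161 for LAMB1). The difference of the log2 effects was 0.90 for ITGB8 (adjusted p = 0.00686, edgeR), 0.56 for ITGA10 (adjusted p = 0.0484) and 0.36 for LAMB1 (adjusted p = 0.0367). In each gene all 3 KI BYL719 libraries were above all 3 KI DMSO libraries, and all 3 parental BYL719 libraries were above all 3 parental DMSO libraries. These are the libraries that the test used, so their order describes the result and is no separate support. How many of all genes separate in this way was not counted. Without KI DMSO replicate 2 the values were 0.74 (adjusted p = 5.71e-06), 0.53 (adjusted p = 0.0406) and 0.27 (adjusted p = 2.88e-04). Over the 17 alternatives the call was lost in 12 for ITGA10 (adjusted p 0.0555 to 0.146), in 10 for LAMB1 (adjusted p 0.0624 to 0.163) and in 0 for ITGB8.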

How the results depend on the processing

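The number of members called between the lines under DMSO was 18, against 34.2% of all genes. It stayed between 14 and 19 under the 6 alternatives of method, against 16.6% to 33.7% of all genes. When 1 library was left out it stayed between 13 and 20, against 26.7% to 38.9%. With BYL719 in parental cells 0 members were called, against 1.43% of all genes. The count was 3 by DESeq2 (5.93% of all genes), 1 without the low-count filter (0.751%) and 11 in a fit of the parental libraries alone (17.3%). It was 0 to 4 when 1 library was left out, against 0.339% to 9.17% of all genes. Without KI DMSO replicate 1 it was 1 (1.56%), and without KI DMSO replicate 2 it was 4 (9.17%). With BYL719 in KI 17 members were called, against 28.3% of all genes. The count was 10 without the filter (13.5% of all genes) and 5 in a fit of the KI libraries alone (13.1%). It was 7 to 15 when 1 library was left out, against 19.7% to 32.4% of all genes. Member counts below 11 were 10 and 9 without parental DMSO replicate 1 and 2, 9 without parental BYL719 replicate 1, and 9 and 7 without KI BYL719 replicate 1 and 3. Between the lines with BYL719 10 members were called, against 22.3% of all genes. The alternatives of method called 10 to 15, against 10.7% to 33.2% of all genes, with 15 (33.2%) in a fit of those groups alone. When 1 library was left out the count was 9 to 18, against 16.5% to 34.6%, with 18 (34.6%) without KI DMSO replicate 2. The interaction called 3 members, against 2.87% of all genes. It called 1 without TMM scaling (2.58% of all genes) and 1 with the effective-length offset (1.29%). When 1 library was left out it called 1 to 4, against 1.11% to 8.71% of all genes. The count was 1 without any 1 parental library or without KI BYL719 replicate 2 or 3. Over the alternatives the 48 called values of single members were recomputed 858 times, of which 706 kept the call and 152 lost it. Values not called were recomputed 2240 times, of which 65 gained a call, and no called direction reversed. Restricting TPM to protein-coding transcripts moved 82 of 152 group means by more than 1 SD.

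Replicate numbers are shared between groups. Deviations of same-numbered libraries correlated between -0.0724 and 0.0795 over 18 pairs, below the limit of 0.1, and 8 of 12 libraries correlated best with their own number. With the replicate block the 5 counts were 19, 0, 17, 10 and 2, against 33.7%, 1.01%, 27.6%, 21.4% and 2.1% of all genes.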
